A study of Mus musculus with 10 samples.

Results

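The 10 genes described here are Pthlh, which encodes parathyroid hormone-related protein (PTHrP), the calcium-sensing receptor gene Casr, and genes for calcium pumps and calcium entry (Atp2b1, Atp2b2, Atp2b4, Atp2c1, Atp2c2, Orai1, Stim1 and Trpv6). They were taken by name from a table of read counts, where all 10 of 10 were found among 24594 genes. The libraries were made from mammary epithelial cells of wild-type virgin C57BL/6J mice, sorted with antibodies to EpCAM and CD49f. Luminal cells line the lumen of the ducts, and basal cells form a contractile sheath around them. There were 5 luminal and 5 basal libraries, and each luminal library shared a number with one basal library, which was read as the animal. No gland of pregnancy or lactation, transgene or treatment entered these groups, and the labels give no age. The question asked was which genes differ between freshly isolated luminal and basal cells.

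PTHrP is best known in the mammary gland as the hormone that the lactating epithelium releases to draw calcium from bone, and it is also needed for the gland to form in the embryo. It acts through the receptor PTH1R. The calcium-sensing receptor on milk-producing cells reads blood calcium and adjusts PTHrP secretion and calcium transport into milk. Calcium enters cells through channels such as ORAI1, which opens when STIM1 senses empty stores in the endoplasmic reticulum, and TRPV6. It leaves through plasma membrane pumps (ATP2B proteins), of which ATP2B2 is the main one of lactation, or is loaded into the Golgi by ATP2C1 and ATP2C2.

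The libraries held 13203146 to 17565471 counts in luminal and 13676558 to 17998165 in basal cells. All 9 luminal markers were called higher in luminal cells and all 7 basal markers higher in basal cells. The summed basal markers stood in the luminal libraries at 0.207% to 0.615% of their basal mean. The summed luminal markers stood in the basal libraries at 8.05% to 12.1% of their luminal mean. Single luminal markers stood there at 11.1% to 26.7% (Krt8 and Krt18), 8.99% to 20.3% (Esr1) and 1.85% to 5.42% (Krt19). The remaining ones reached at most 0.935% (Kit), and Prlr at most 0.184%. Summed endothelial markers ranged from 1.69 to 4.06 CPM (counts scaled to the library total after TMM adjustment) in luminal and from 6.56 to 14.4 CPM in basal libraries, and immune markers from 4.13 to 11.3 and from 12.2 to 34.6 CPM. Fibroblast markers ranged from 17.8 to 108 and from 33.1 to 46.9 CPM, adipocyte markers from 0.611 to 2.21 and from 3.95 to 8.88 CPM, and erythroid markers from 4.74 to 18.4 and from 0.614 to 2.28 CPM. Within the immune and fibroblast sums, members went both ways. Cd74 was called higher in basal cells (means 2.62 and 20.7 CPM), but Cd52 and Lyz2 in luminal cells. Dcn, at 95.1 CPM in luminal replicate 1, was called higher in luminal cells. Pdgfra and Pdgfrb (14.3-fold) were called higher in basal cells, and Col1a1 and Lum were not called. Of the other sums, the endothelial Cdh5 (20.6-fold) and the adipocyte Fabp4 (5.30-fold) were called higher in basal cells. The erythroid Hba-a1, with 4 basal counts in all, was called higher in luminal cells (162-fold). Pecam1 and Alas2 were not called. The T cell marker Cd3e and the adipocyte marker Adipoq had 0 counts in every library. The part of these other cells in the differences below was not tested.

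Of the 10 genes, 4 were higher in basal cells (Pthlh, Atp2b4, Stim1 and Trpv6), 3 were higher in luminal cells (Atp2c1, Atp2c2 and Orai1), 1 was not called (Atp2b1), and Casr and Atp2b2 had too few counts to be tested. A gene was called when edgeR's quasi-likelihood test gave a Benjamini-Hochberg adjusted p under 0.05 over the 14609 genes tested. Most of the transcriptome differed between these cell types: 64.8% of the genes tested were called, 33.6% with the higher level in luminal cells and 31.2% with the higher level in basal cells, and 50.1% had luminal and basal CPM ranges that did not overlap. The split between directions moved with the scaling, from 4904 luminal and 4558 basal calls to 5439 and 4051 with upper-quartile factors and 5705 and 3705 with library totals only. Among the 8 tested genes, 7 were called and the same 7 had ranges that did not overlap. Their median log2 fold change, luminal minus basal, was -1.29, beside 0.05 over all genes tested. That median falls in a gap between Trpv6 (-2.81) and Atp2b1 (0.23) where none of the 8 lies, so it describes no gene of the set. In bulk libraries, fewer cells expressing a gene and less RNA of it per cell cannot be told apart.

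**Figure D1:**
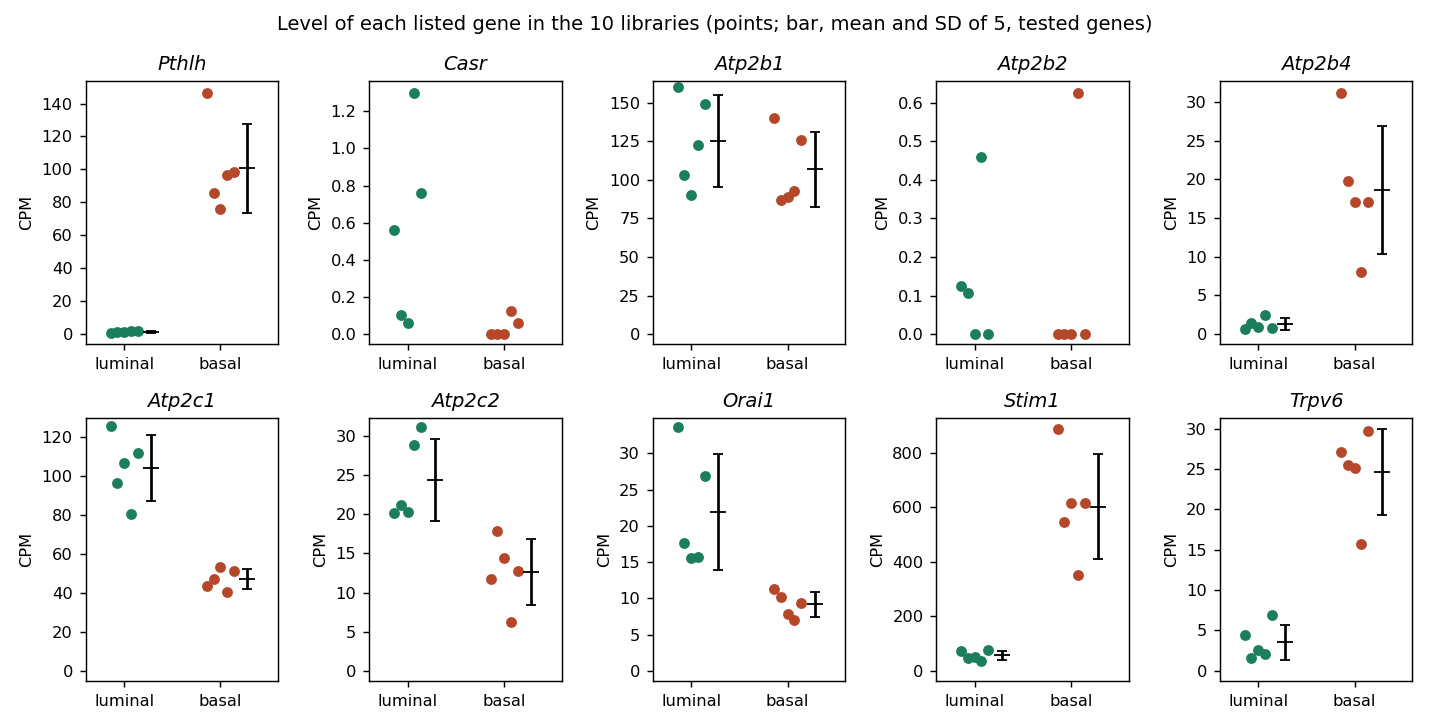
TMM-scaled CPM of each of the 10 genes in the 5 luminal (green) and 5 basal (red) libraries, 1 point per library, with the mean and SD beside the points for the 8 tested genes. Pthlh, Atp2b4, Stim1 and Trpv6 lie higher in all basal libraries, Atp2c1, Atp2c2 and Orai1 in all luminal libraries, and Atp2b1, Casr and Atp2b2 overlap.

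Pthlh (Entrez 19227, chromosome 6, 147252109 to 147264013, mm10) was a basal gene in these glands. The luminal libraries 1 to 5 held 0.813, 1.16, 0.981, 1.76 and 1.71 CPM, and the basal libraries 146, 85.7, 76.1, 96.4 and 98.5 CPM. Behind these stood 13 to 27 counts per luminal and 984 to 2347 counts per basal library. The lowest basal library was far above the highest luminal one. The luminal mean was 1.28 ± 0.429 CPM and the basal mean 101 ± 27.1 CPM (SD, n = 5 each), a log2 fold change of -6.30 (SE 0.27, edgeR adjusted p = 2.28e-10), or 78.7-fold higher in basal cells. Only 198 of the 14609 genes tested had a more negative log2 fold change. Luminal libraries held Pthlh at 0.808% to 1.75% of its basal mean, a share that exceeded that of the summed basal markers in each of the 5 libraries.

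The other genes of the PTH and PTHrP list were scarce. Pth, which encodes parathyroid hormone, had 0 counts in every library. Pth1r, the receptor shared by both hormones, had 0, 6, 2, 3 and 0 counts in the luminal libraries and 5, 10, 24, 12 and 15 in the basal libraries, so luminal library 2 exceeded basal library 1 and the groups overlapped. The basal library held more in 5 of 5 same-numbered pairs, and the sums were 11 and 66 counts. Pth1r did not pass the filter on low counts and has no main test; with no filter, edgeR gave a log2 fold change of -2.73 (SE 0.90, adjusted p = 0.0178) and DESeq2 -2.78 (SE 0.87, adjusted p = 0.00319). Of the 5 genes of the PTH and PTHrP list, Pthlh alone was tested.

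The tested genes whose log2(CPM + 0.5) followed Pthlh most closely over the 10 libraries were Lhfp (Pearson r = 0.998), Ppp1r15a (0.997), a regulatory subunit of protein phosphatase 1 induced by stress, and Gm12505 (0.997). Lhfp averaged 8.59 ± 2.25 CPM among luminal and 296 ± 69.6 CPM among basal libraries (SD, n = 5 each). The libraries fall into 2 separate groups, so r here is mostly a measure of the difference between cell types, and 1348 genes had an r over 0.95. No test was applied to it.

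Casr (chromosome 16, 36490585 to 36562141) was barely detected. Luminal libraries 1 to 5 held 9, 2, 1, 17 and 12 counts, and basal libraries 0, 0, 0, 2 and 1. In all 5 same-numbered pairs the luminal library held more counts, but the group ranges overlapped. Over the summed libraries, 41 counts stood against 3, a depth-scaled ratio of 13 with a 95% exact counting interval of 4.15 to 65.7, which covers counting error only. The ratio rests on few basal counts: without basal replicate 4, 41 counts stood against 1, a ratio of 30.8 (interval 5.23 to 1247). Without any other single library it lay between 9.10 and 16.2. Casr failed the low-count filter; with no filter, edgeR gave a log2 fold change of 3.54 (SE 1.12, adjusted p = 0.0144) and DESeq2 3.82 (SE 1.33, adjusted p = 0.00853).

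The genes listed for calcium-sensing receptor signalling were divided. Of 12 genes on that list, which includes Casr itself, 10 were tested, and Casr and Gprc6a were not. Among the 10, 3 were higher in luminal cells (Gna11, Gnai2 and Ap2s1), 2 in basal cells (Gnai1 and Flna) and 5 were not called. Their median log2 fold change was -0.10. Gnai1, an inhibitory G protein subunit, averaged 0.431 ± 0.229 CPM in luminal and 47.1 ± 16.5 CPM in basal cells (SD, n = 5 each; log2 fold change -6.70, SE 0.37, edgeR adjusted p = 2.04e-09). Flna, the actin cross-linker filamin A that binds the receptor's tail, averaged 165 ± 35.4 and 2342 ± 597 CPM (SD, n = 5 each; log2 fold change -3.83, edgeR adjusted p = 5.42e-09, and -3.07 with offsets for transcript length and GC content). Ap2s1, the clathrin adaptor subunit through which the receptor is internalised, went the other way, at 72.8 ± 23.5 and 30.7 ± 7.35 CPM (SD, n = 5 each; log2 fold change 1.25, edgeR adjusted p = 1.98e-04, and 0.65 with the same offsets).

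The plasma membrane pumps differed from one another. Atp2b1 (chromosome 10, 98914630 to 99026143), the widely expressed pump, held 160, 103, 90.05, 122 and 149 CPM in luminal libraries 1 to 5 and 140, 86.6, 89.0, 92.7 and 126 CPM in basal libraries. The groups overlapped, although the luminal library was the higher one in 5 of 5 same-numbered pairs. The means were 125 ± 29.7 and 107 ± 24.5 CPM (SD, n = 5 each), and the log2 fold change of 0.23 (SE 0.19, edgeR adjusted p = 0.314) had a 95% interval of -0.18 to 0.63. With offsets for transcript length and GC content the log2 fold change was 0.62 (edgeR adjusted p = 0.00719), and with the replicate number as a block and no offsets the edgeR adjusted p was 0.128.

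Atp2b2 (chromosome 6, 113743831 to 114042613), the pump of lactation, was barely detected in either cell type. It had 2, 2, 0, 6 and 0 counts in luminal libraries 1 to 5 and 0, 0, 0, 10 and 0 in basal libraries, which is 10 counts in each group. The depth-scaled ratio of luminal to basal sums was 0.952 with a 95% exact counting interval of 0.355 to 2.55, and all basal counts came from replicate 4. Without basal replicate 4, 10 counts stood against 0 and the lower end of the interval was 1.69, and without luminal replicate 4 the ratio was 0.455 (interval 0.104 to 1.58). The related Atp2b3 had 2 counts in luminal and 2 in basal libraries.

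Atp2b4 (chromosome 1, 133702674 to 133801059), another pump of this family, was a basal gene. Luminal libraries 1 to 5 held 0.688, 1.47, 0.920, 2.52 and 0.825 CPM, and basal libraries 31.2, 19.8, 17.1, 8.07 and 17.1 CPM. Replicate 4 had the highest luminal and the lowest basal value, and the groups stayed apart. The means were 1.29 ± 0.752 and 18.6 ± 8.29 CPM (SD, n = 5 each), 14.6-fold higher in basal cells (log2 fold change -3.87, SE 0.41, edgeR adjusted p = 1.46e-06). With the length and GC offsets the log2 fold change was -3.09 (edgeR adjusted p = 1.04e-05), and without both replicate 4 libraries it was -4.42 (edgeR adjusted p = 1.03e-07).

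Among 14 genes for calcium export across the plasma membrane, 8 were tested, of which 1 was higher in luminal cells, 5 in basal cells and 2 were not called (median log2 fold change -0.80). The sodium-calcium exchanger Slc8a1 averaged 0.436 ± 0.657 CPM in luminal and 6.25 ± 2.78 CPM in basal cells (SD, n = 5 each; log2 fold change -3.90, SE 0.69, edgeR adjusted p = 1.82e-04), and without luminal replicate 4, which held 1.6 CPM, the log2 fold change was -5.33 (edgeR adjusted p = 8.25e-07), against -3.23 with the offsets. The potassium-dependent exchanger Slc24a3 was the luminal one, at 16.7 ± 5.17 and 5.54 ± 2.95 CPM (SD, n = 5 each; log2 fold change 1.59, edgeR adjusted p = 4.88e-04). The pump subunits neuroplastin (Nptn) and basigin (Bsg) were abundant in both: Nptn was slightly higher in basal cells (log2 fold change -0.45, edgeR adjusted p = 0.0251), a call lost with upper-quartile factors (edgeR adjusted p = 0.0822), library totals only, the length and GC offsets, or without replicate 2 or 3 of either cell type. The log2 fold change of Nptn in these fits lay between -0.42 and -0.27. Bsg had a log2 fold change of 0.06 (edgeR adjusted p = 0.843), whose sign turned with no filter, with the offsets, or without luminal replicate 2 or 3 or basal replicate 5.

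Both Golgi pumps were higher in luminal cells. Atp2c1 (chromosome 9, 105411362 to 105521257), the widely expressed one, held 126, 96.5, 107, 80.8 and 112 CPM in luminal libraries 1 to 5 and 43.7, 47.3, 53.4, 40.4 and 51.1 CPM in basal libraries. The groups did not overlap, and their means were 104 ± 16.9 and 47.2 ± 5.31 CPM (SD, n = 5 each), a 2.21-fold difference (log2 fold change 1.15, SE 0.14, edgeR adjusted p = 7.88e-06). Of its exon bases, 18.9% are shared with Aste1 on the opposite strand, and counts of the 2 genes cannot be told apart there unless strand was used.

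Atp2c2 (chromosome 8, 119700009 to 119757718), the pump found mainly in secretory epithelia, held 20.2, 21.2, 20.3, 28.9 and 31.1 CPM in luminal libraries 1 to 5 and 11.7, 17.9, 14.4, 6.25 and 12.7 CPM in basal libraries. The lowest luminal library was just above the highest basal one, replicate 2. The means were 24.3 ± 5.23 and 12.6 ± 4.25 CPM (SD, n = 5 each), a 1.93-fold difference (log2 fold change 0.95, SE 0.24, edgeR adjusted p = 0.00354). Within a library the log2 ratio of Atp2c2 to Atp2c1 counts averaged -2.11 ± 0.45 in luminal and -1.98 ± 0.46 in basal cells (SD, n = 5 each), and these ranges overlapped.

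Of 8 genes for pumps of the Golgi and endoplasmic reticulum, 6 were tested: 3 were higher in luminal cells, 2 in basal cells and 1 was not called (median log2 fold change 0.66). Atp2a2, the general reticulum pump SERCA2, averaged 237 ± 46.0 CPM in luminal and 1258 ± 197 CPM in basal cells (SD, n = 5 each; log2 fold change -2.41, SE 0.18, edgeR adjusted p = 4.45e-08). Atp2a3, which encodes SERCA3, had 150, 243, 29, 33 and 84 counts in luminal libraries 1 to 5 and 0 in every basal library. Against a floor of 3 counts per basal library, its luminal mean of 6.36 ± 4.67 CPM (SD, n = 5) was at least 32.1-fold higher (edgeR adjusted p = 2.40e-05).

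**Figure D2:**
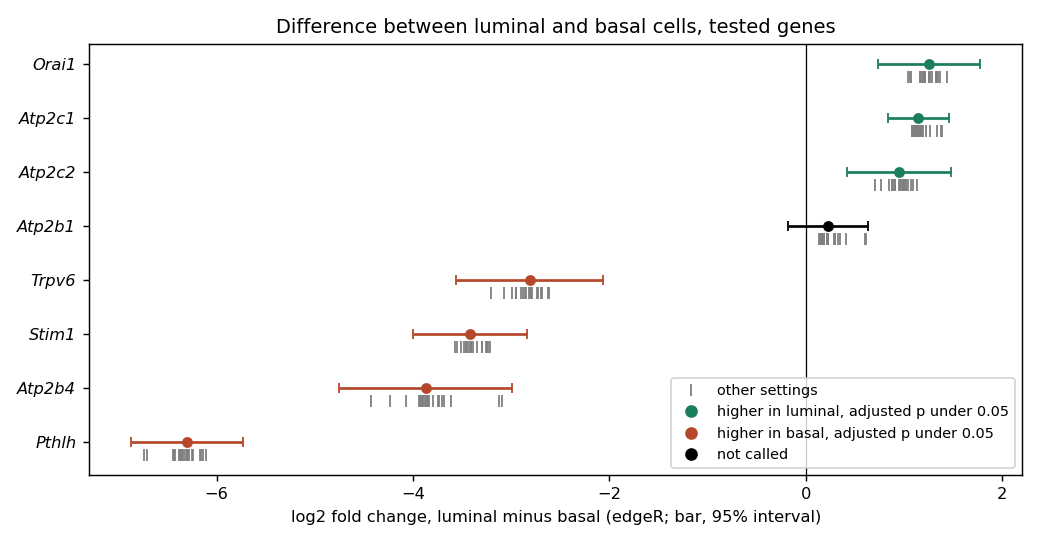
Log2 fold change, luminal minus basal, of the 8 tested genes with the 95% interval of the edgeR fit, and below each the value under every other setting or left-out library as a grey tick. Pthlh lies lowest at -6.30 and Orai1 highest at 1.25, and the interval of Atp2b1 spans 0.

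Of the best known pair of store-operated entry, the channel gene Orai1 was higher in luminal and the sensor gene Stim1 in basal cells. Orai1 (chromosome 5, 123015074 to 123030452), the pore of the channel, held 33.6, 17.6, 15.5, 15.7 and 26.9 CPM in luminal libraries 1 to 5 and 11.4, 10.2, 7.81, 7.06 and 9.41 CPM in basal libraries. Luminal replicates 1 and 5 were the highest, and all luminal libraries lay above all basal ones. The means were 21.9 ± 8.04 and 9.16 ± 1.74 CPM (SD, n = 5 each), 2.39-fold higher in luminal cells (log2 fold change 1.25, SE 0.24, edgeR adjusted p = 4.14e-04).

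Stim1 (chromosome 7, 102261514 to 102437319), the sensor, went the other way. Luminal libraries 1 to 5 held 72.6, 46.7, 49.9, 36.6 and 76.7 CPM, and basal libraries 887, 546, 616, 350 and 616 CPM. Replicate 4 was the lowest in both groups. The means were 56.5 ± 17.3 and 603 ± 192 CPM (SD, n = 5 each), 10.7-fold higher in basal cells (log2 fold change -3.41, SE 0.27, edgeR adjusted p = 7.18e-08). In luminal libraries Stim1 stood at 6.07% to 12.7% of its basal mean, beside 0.207% to 0.615% for the summed basal markers.

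The paralogs of both genes did not follow them. Stim2 was higher in luminal cells, at 28 ± 6.66 and 17.2 ± 3.32 CPM (SD, n = 5 each; log2 fold change 0.70, edgeR adjusted p = 0.00697). Orai2 was higher in basal cells, at 8.48 ± 2.75 and 19.1 ± 2.77 CPM (SD, n = 5 each; log2 fold change -1.16, edgeR adjusted p = 8.00e-04). Orai3 was also higher in basal cells (log2 fold change -0.60, edgeR adjusted p = 0.0331), a call lost with upper-quartile factors (0.0854), with library totals only (0.151), without both replicate 4 libraries (0.0705) and without luminal replicate 2 or 5 or basal replicate 2, 3 or 4, where the largest edgeR adjusted p was 0.0883. The log2 fold change of Orai3 in these fits lay between -0.61 and -0.40.

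Per kb of transcript, Stim2 made up 24.2% to 43.5% of the summed Stim1 and Stim2 level in luminal and 1.52% to 5.37% in basal libraries. Orai3 made up 26.9% to 51.8% of the summed Orai1 and Orai3 level in luminal and 59.6% to 75.1% in basal libraries. Neither pair of ranges overlapped between the cell types. The Atp2b4 share of the summed Atp2b1 and Atp2b4 level was likewise apart, at 0.261% to 1.24% in luminal and 5.02% to 12.2% in basal libraries.

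**Figure D3:**
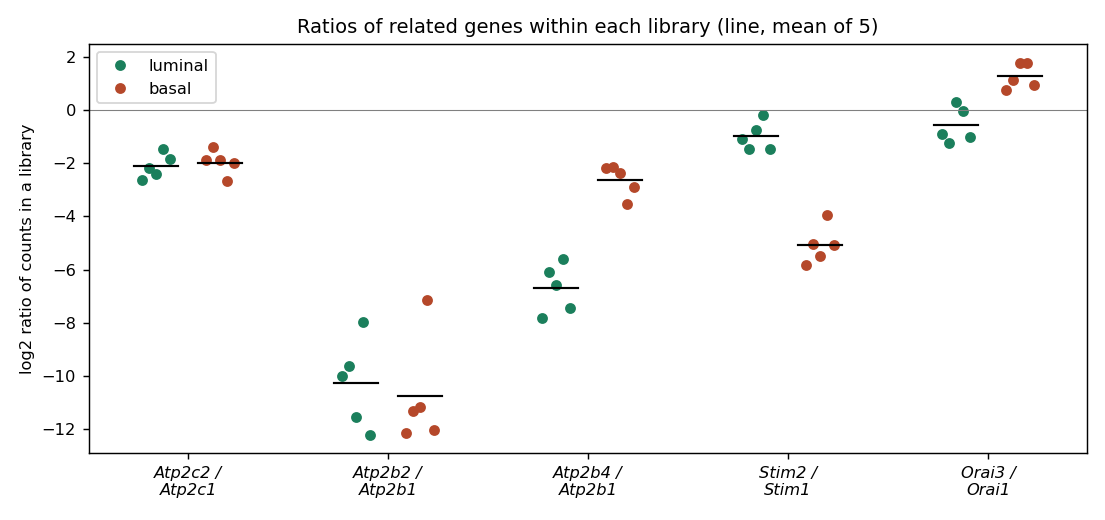
Log2 ratio of the counts of 2 related genes within each library (pseudocount 0.5), with luminal libraries in green, basal libraries in red and the mean as a line. The groups separate for Atp2b4 to Atp2b1, Stim2 to Stim1 and Orai3 to Orai1, and overlap for Atp2c2 to Atp2c1 and Atp2b2 to Atp2b1.

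Of 10 genes for store-operated entry, 9 were tested, 4 of them higher in luminal cells and 5 in basal cells (median log2 fold change -0.60). Trpc1, a channel subunit of the TRPC family, averaged 1.23 ± 0.786 CPM in luminal and 27.2 ± 3.53 CPM in basal cells (SD, n = 5 each; log2 fold change -4.43, edgeR adjusted p = 4.65e-08). Saraf, which slows this entry, was also higher in basal cells (log2 fold change -1.19, edgeR adjusted p = 1.20e-05). Cracr2b, a regulator of ORAI1, averaged 114 ± 16.1 and 16.7 ± 3.45 CPM (SD, n = 5 each; log2 fold change 2.76, edgeR adjusted p = 5.69e-09), but 50.8% of its exon bases are shared with Gm10575 on the opposite strand.

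Trpv6 (chromosome 6, 41620619 to 41636405), an epithelial calcium channel induced by vitamin D in the gut, was higher in basal cells. Luminal libraries 1 to 5 held 4.44, 1.58, 2.51, 2.14 and 6.85 CPM, and basal libraries 27.1, 25.5, 25.1, 15.8 and 29.7 CPM. Basal replicate 4 was the lowest of its group and still above every luminal library. The means were 3.51 ± 2.16 and 24.6 ± 5.28 CPM (SD, n = 5 each), 7.02-fold higher in basal cells (log2 fold change -2.81, SE 0.35, edgeR adjusted p = 7.51e-06). Its close relative Trpv5 had 26 counts in luminal and 11 in basal libraries and was not tested.

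Of 8 genes for epithelial calcium entry and vitamin D, 4 were tested. Besides Trpv6, the vitamin D receptor Vdr (92.8 ± 37.6 and 196 ± 41.6 CPM, SD, n = 5 each; log2 fold change -1.08, edgeR adjusted p = 0.00273) and Cyp27b1, which makes active vitamin D, were higher in basal cells. S100g, the calcium buffer calbindin-D9k, was higher in luminal cells at a low level, 2.22 ± 1.31 CPM (SD, n = 5), with counts in 1 of 5 basal libraries (log2 fold change 5.22, edgeR adjusted p = 1.17e-04). Without that library, basal replicate 5, the fitted value was 8.11 (edgeR adjusted p = 1.58e-04) and has no bound, since all other basal libraries were at 0. Thinning all libraries to the smallest total gave S100g 6.505 (edgeR adjusted p = 9.93e-06) and the length and GC offsets 4.10 (edgeR adjusted p = 0.00122). Cyp24a1, which degrades vitamin D, had 73 luminal and 2 basal counts, a ratio of 34.7 (95% exact counting interval 9.28 to 292), and was not tested. Each of the 2 basal counts came from another library, and without basal replicate 1 or 3 the ratio was 54.9 or 57.7.

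The promoter windows of the 4 genes higher in basal cells are shown because these genes moved the same way. They run from 250 bases before to 50 bases after a start site in RefSeq (GRCm38.p6). Capitals mark GGGCGG, the core of the GC box bound by SP1, and GGAATG, the core bound by TEAD factors, on either strand; the 2 motifs do not overlap in these windows. The Pthlh window is at chr6:147263964-147264263 (minus strand), Stim1 at chr7:102267569-102267868 (plus strand), Atp2b4 at chr1:133753698-133753997 (minus strand) and Trpv6 at chr6:41636356-41636655 (minus strand).
Pthlh: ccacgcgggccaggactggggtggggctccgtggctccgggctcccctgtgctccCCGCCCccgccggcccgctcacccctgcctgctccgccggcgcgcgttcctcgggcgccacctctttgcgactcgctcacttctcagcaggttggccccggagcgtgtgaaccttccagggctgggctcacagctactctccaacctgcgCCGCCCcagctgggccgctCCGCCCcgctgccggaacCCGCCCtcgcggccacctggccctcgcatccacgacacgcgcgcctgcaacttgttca
Stim1: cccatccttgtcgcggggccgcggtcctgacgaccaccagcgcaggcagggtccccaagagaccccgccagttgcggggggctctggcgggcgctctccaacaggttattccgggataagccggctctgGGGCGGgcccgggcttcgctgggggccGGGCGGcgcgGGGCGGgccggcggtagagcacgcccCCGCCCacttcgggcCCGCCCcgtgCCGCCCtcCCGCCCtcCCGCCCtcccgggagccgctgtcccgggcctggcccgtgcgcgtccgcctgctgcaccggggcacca
Atp2b4: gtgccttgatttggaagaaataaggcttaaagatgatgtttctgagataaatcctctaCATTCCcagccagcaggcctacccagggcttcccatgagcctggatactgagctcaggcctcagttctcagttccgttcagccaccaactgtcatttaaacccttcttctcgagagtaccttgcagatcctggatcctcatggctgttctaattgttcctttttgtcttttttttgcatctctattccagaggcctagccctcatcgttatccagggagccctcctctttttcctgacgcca
Trpv6: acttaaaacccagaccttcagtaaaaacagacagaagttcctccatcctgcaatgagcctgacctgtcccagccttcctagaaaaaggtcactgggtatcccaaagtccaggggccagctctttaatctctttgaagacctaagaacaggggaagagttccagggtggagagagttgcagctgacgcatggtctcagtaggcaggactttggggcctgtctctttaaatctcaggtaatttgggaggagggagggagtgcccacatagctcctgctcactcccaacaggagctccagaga

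In GC content and in the marked motifs, these 4 windows were not all alike. Pthlh and Stim1 are GC-rich, at 74.0% and 78.7% GC, and hold 4 and 8 GC boxes, whereas Atp2b4 and Trpv6, at 47.7% and 51.3% GC, hold 0. Genes not called higher in basal cells also hold GC boxes: Orai1 holds 3 (70.3% GC) and the Atp2b1 windows 4 and 3 (79.3% GC each). The Atp2c1 windows hold 4 and 0, the Atp2b2 windows 2, 0 and 3, and the Casr window 0. The median over all RefSeq promoters was 52.7% GC, and 35.7% of 32851 promoters hold a GC box. Among the 4 windows shown, the TEAD core occurs 1 time in Atp2b4 and 0 times in the other 3. It also occurs in 1 Atp2b2 window and in 14.7% of all promoters. TATAAA on the gene's strand (8.32% of all promoters) and the CArG box bound by serum response factor on either strand (1.63%) were found in none of the 13 windows of the 9 genes that had an entry, Atp2c2 being the one without. The Atp2b4 and Stim1 windows lie inside the annotated gene spans, at start sites downstream of the outermost one.

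Per kb of transcript, the order of the 10 genes changed between the cell types. In luminal cells Atp2c1 led at 18.5 ± 3.004 CPM per kb (SD, n = 5), followed by Atp2b1 (17.5), Stim1 (13), Orai1 (11.7) and Atp2c2 (7.55), with overlapping ranges between neighbours. A gap separated these from Trpv6 (1.2) and Pthlh (0.801), which overlapped each other, and these from Casr (0.123) and Atp2b4 (0.110), with Atp2b2 (0.0155) last.

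In basal cells Stim1 led at 138 ± 44.1 CPM per kb (SD, n = 5) and Pthlh came next at 62.8 ± 16.9 CPM per kb (SD, n = 5), with overlapping ranges. Atp2b1 (15.0) lay apart from its neighbours on either side. Trpv6 (8.43) and Atp2c1 (8.36) overlapped, as did Orai1 (4.89) with Atp2c2 (3.91) and Atp2c2 with Atp2b4 (1.59). Atp2b2 (0.0141) and Casr (0.00816) were last and overlapped.

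**Figure D4:**
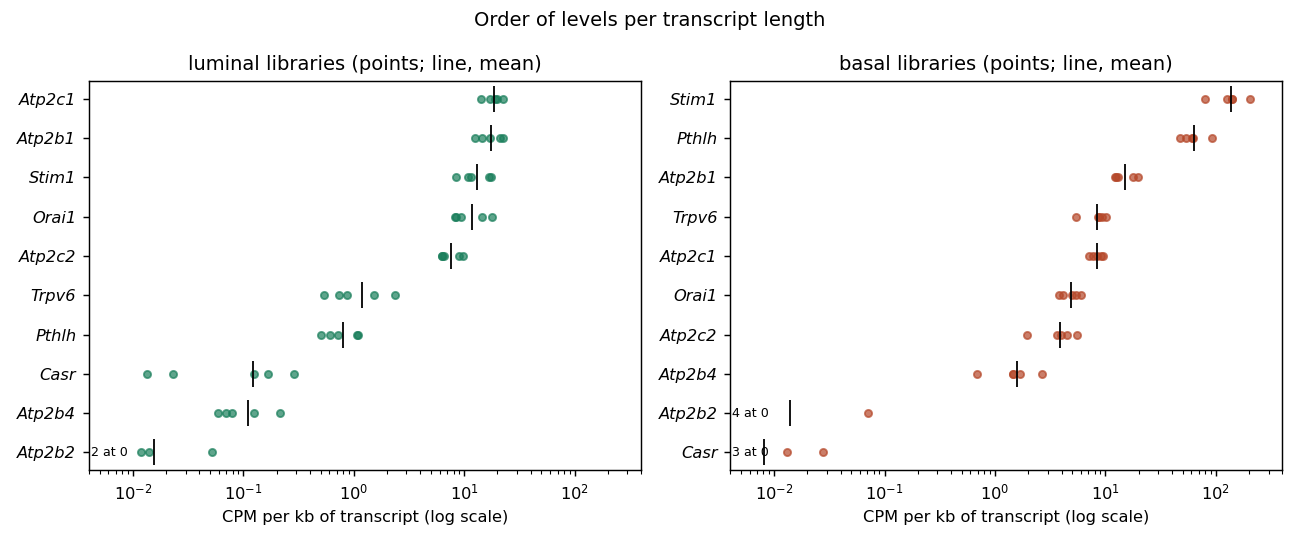
CPM per kb of the longest annotated transcript, on a log axis, for the 10 genes ordered by mean in luminal (left) and basal (right) libraries, with 1 point per library, the mean as a line and the number of libraries at 0 written where there are any. Pthlh is the seventh gene in luminal and the second in basal cells.

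Serotonin made by the mammary epithelium is known to raise PTHrP in lactation, and the tested genes of that list stood far apart. Tph1, the enzyme that starts serotonin synthesis, had 4360, 7138, 2798, 1958 and 1260 counts in luminal libraries 1 to 5 and 0, 6, 2, 0 and 0 in basal libraries. Its means were 209.9 ± 116 and 0.113 ± 0.179 CPM (SD, n = 5 each; log2 fold change 10.85, SE 0.66, edgeR adjusted p = 4.97e-09), and without basal replicate 2 the fitted value was 12.33 (edgeR adjusted p = 2.13e-08). Htr1d, a serotonin receptor, was the reverse, at 1.09 ± 0.678 and 54.8 ± 19.8 CPM (SD, n = 5 each; log2 fold change -5.66, SE 0.45, edgeR adjusted p = 7.78e-08). Of the 8 genes 3 were tested, and the remaining one, Htr2b, was not called (log2 fold change -0.04, edgeR adjusted p = 0.975).

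All 8 genes on the list for mitochondrial calcium, which covers both entry and exit, were tested: 3 were higher in luminal cells, 2 in basal cells and 3 were not called (median log2 fold change 0.17). Slc8b1, the exchanger that lets calcium out of mitochondria, averaged 48.3 ± 4.70 and 7.996 ± 2.35 CPM (SD, n = 5 each; log2 fold change 2.59, edgeR adjusted p = 6.69e-08). Smdt1, an essential uniporter subunit, was higher in luminal cells (log2 fold change 1.36, edgeR adjusted p = 6.92e-05), with 0.45 under the length and GC offsets (edgeR adjusted p = 0.00778). Micu3, a uniporter regulator, was higher in basal cells (log2 fold change -2.16, edgeR adjusted p = 2.47e-05). Over all lists, 63 further genes were examined, of which 41 were tested, 13 were higher in luminal cells, 17 in basal cells and 11 were not called.

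**Figure D5:**
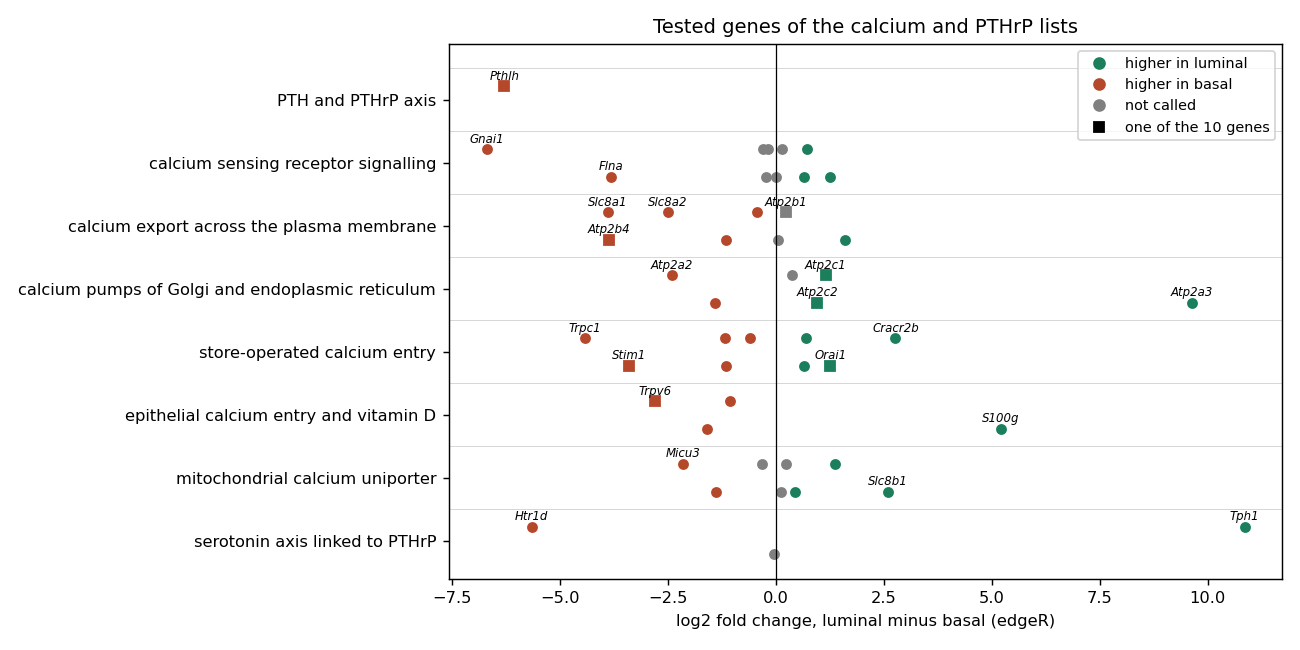
Log2 fold change, luminal minus basal, of every tested gene of the 8 calcium and PTHrP lists, 1 list per row, with the 10 genes as squares and names given for them and for genes beyond 2 in size. Both directions occur in 7 of the 8 lists, and Tph1 lies farthest right at 10.85, and the fitted value of Atp2a3 next to it in size depends on the prior count because its basal libraries are at 0.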

How the data were processed

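RNA from sorted luminal and basal cells was sequenced in 10 libraries. The values deposited by the authors are raw counts of reads for each gene. The submitters' processing notes name cutadapt 4.2, Bowtie2 2.3.5.1 and mm10, and also list the human build hg19, whose role is not given; 24570 identifiers in the table matched mouse genes. The counting tool, annotation and use of strand are not given in the sources used here. Bowtie2 does not align across splice junctions, which can lower counts of genes with short exons. The study describes fewer replicates per condition than the 5 here.

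The cell type label set the groups. In all 10 libraries the title gives the other cell type, while source name and description code match the label. Same-numbered libraries share the leading number of the description, read as the animal. The correlation of their deviations averaged 0.0369 (single pairs -0.105 to 0.169), beside -0.00626 for libraries with other numbers. That animals were separate rests on the leading numbers alone, and p-values measure the spread between these libraries. No 2 libraries agreed within sampling noise.

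RefSeq gave a symbol for 24570 of 24594 genes. Genes were filtered with filterByExpr (minimum count 10, minimum total 15), scaled by TMM and compared with edgeR 4.0.16 (R 4.3.3), modelling cell type alone, with Benjamini-Hochberg adjustment over 14609 genes. Alternatives used other scalings, filters, DESeq2 1.42.0, limma 3.58.1, a replicate block, thinning and left-out libraries. Length and GC offsets, leaving out both replicate 4 libraries, and leaving out libraries from summed count ratios were chosen after seeing the data. The fits were tested on simulated data. The 10 genes and all lists were chosen with earlier results of these data known. Besides the 10, genes were named by largest change in each direction, highest mean, or kinship to a member, and Pth, Gna11, Gnai2, Cyp27b1, Cyp24a1 and Htr2b after their values were seen. Gene coordinates are RefSeq's (GRCm38.p6) and lengths those of the longest GENCODE M21 transcript.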

Additional observations from a re-analysis of the deposited data

Results flagged for a closer look

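In 8 of 76 groups of 5 libraries examined, 1 library lay far from the rest of its group by Dixon's criterion, where chance gives about 3.8. Replicate 4 accounted for 6 of the 8. The figure for chance does not apply to groups whose other libraries were all at 0, where any count gives a flag. Atp2b2 in basal replicate 4 was flagged both by its CPM and by its ratio to Atp2b1. Atp2b2 stood at 0.458 CPM in luminal replicate 4 (0 to 0.125 CPM in the others) and at 0.625 CPM in basal replicate 4 (0 in the others), and its log2 ratio to Atp2b1 was -7.14 in basal replicate 4 (-12.1 to -11.2 in the others). Slc24a3 was 10.8 CPM in basal replicate 4 (3.55 to 4.74 in the others). In luminal replicate 4, Slc8a1 was 1.6 CPM (0.0634 to 0.263 in the others) and Orai2 was 3.74 CPM, the lowest (9.20 to 11 in the others). S100g was 0.240 CPM in basal replicate 5 (0 in the others) and Trpv5 was 0.686 CPM in basal replicate 1 (0 in the others).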

How the results depend on the processing

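The 8 tested genes kept their direction in all 176 refits, and 7 kept their call. Atp2b1 passed the threshold with length and GC offsets (log2 fold change 0.62) and with these and the replicate block (0.60). Leaving out 1 library moved Pthlh between -6.43 and -6.14. The replicate block gave Pthlh -6.28 and changed no call of the 8 genes. Upper-quartile factors and library totals moved the median of all genes by 0.12 and 0.19. Bsg turned to -0.0076 with no filter, -0.25 with the offsets, -0.29 with offsets and block, and ranged from -0.043 to 0.18 with 1 library left out. The difference in log2 ratio of Atp2c2 to Atp2c1 was -0.13 and ranged from -0.31 to 0.0081 with 1 library left out (0.0081 without basal replicate 2), and that of Atp2b2 to Atp2b1 was 0.50 and ranged from -0.075 (without luminal replicate 4) to 1.41. Export genes called higher in luminal cells numbered 2 with the offsets, with or without the block. At no filter and with DESeq2, 2 vitamin D list genes were called in luminal cells and 2 PTH list genes in basal cells. With at least 10 counts in every library these were 0 for vitamin D genes in luminal cells, 0 and 0 for serotonin genes in either direction, and 1 for calcium-sensing genes in basal cells, where fewer genes were tested. Casr, Atp2b2 and Pth1r had 24 counts or fewer per library, which limits the precision of their values. Causes were not tested.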
